A study of Mus musculus with 4 samples.

Results

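Among 11434 FOXL2 ChIP-seq peaks on chromosomes 1 to 19 and X, 480 (4.2%, exact 95% confidence interval 3.84 to 4.58%) lay at the border of a long noncoding RNA (lncRNA) gene and away from coding gene borders. A border is either end of the annotated gene. A peak was taken when its centre was within 1 kb of a lncRNA gene border and over 1 kb from the border of every protein-coding gene, on build mm10 with RefSeq genes of assembly GRCm38.p6. The whole file held 11438 peaks. A further 912 of the 1392 peaks within 1 kb of a lncRNA border (65.5%) were also within 1 kb of a coding border and were left out. The 480 peaks made up 11.5% of the 4189 peaks over 1 kb from coding borders.

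The chromatin came from ovaries of CD1 mouse embryos at E14.5, separated from the mesonephros, with a FOXL2 antibody from Novus in the 2 ChIP samples, from independent experiments, and none in the 2 input samples. All samples shared strain, stage and tissue, and no genotype or treatment differed. Each ChIP used a pool of 80 to 100 ovaries, in which somatic cells and germ cells were not separated. The peaks were deposited as a single list of 300 bp intervals without heights, so no peak has a replicate error, depth is unknown, a place without a peak may only be below the authors' threshold, the cell type of a peak is not known, and the tissue label cannot be checked against marker genes. Intervals given for shares cover counting error only, and no p-value was computed.

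FOXL2 is a forkhead factor of the granulosa lineage, the somatic cells that surround oocytes. Genes for lncRNAs give transcripts that are not translated. Many of them start from the same stretch of open DNA as a coding gene on the other strand, some carry small nucleolar RNAs (snoRNAs) or microRNAs in their introns, and others have a promoter of their own. Promoters rich in CpG dinucleotides are typical of genes active in many tissues, whereas CpG-poor promoters are more often tissue-restricted.

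The start windows of 7 lncRNA genes show the kinds of sequence found there. Each runs from 250 bases before to 50 bases after a start listed by RefSeq (GRCm38.p6), written 5′ to 3′ on the strand of the lncRNA, and overlaps a peak by 188 to 283 bases. In the first 3, chosen as well-known lncRNAs with a peak centre in the window, capitals mark CpG dinucleotides. Chaserr (chr7:73558346-73558645, minus strand) has 30 of them, Snhg15 (chr11:6528711-6529010, minus strand) 29 and Snhg9 (chr17:24719916-24720215, minus strand) 28.
Chaserr: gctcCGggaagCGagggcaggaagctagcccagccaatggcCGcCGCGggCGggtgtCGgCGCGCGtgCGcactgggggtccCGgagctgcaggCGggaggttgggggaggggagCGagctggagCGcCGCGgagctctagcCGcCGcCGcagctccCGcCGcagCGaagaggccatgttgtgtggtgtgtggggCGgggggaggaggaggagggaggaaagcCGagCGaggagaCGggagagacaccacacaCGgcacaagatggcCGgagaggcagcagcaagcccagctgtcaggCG
Snhg15: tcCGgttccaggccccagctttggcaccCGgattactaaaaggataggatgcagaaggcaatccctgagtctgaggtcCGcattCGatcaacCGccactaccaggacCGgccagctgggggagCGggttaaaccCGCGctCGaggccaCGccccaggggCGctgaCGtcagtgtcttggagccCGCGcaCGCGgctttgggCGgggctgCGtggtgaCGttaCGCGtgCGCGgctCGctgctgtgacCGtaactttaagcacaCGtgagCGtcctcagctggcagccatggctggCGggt
Snhg9: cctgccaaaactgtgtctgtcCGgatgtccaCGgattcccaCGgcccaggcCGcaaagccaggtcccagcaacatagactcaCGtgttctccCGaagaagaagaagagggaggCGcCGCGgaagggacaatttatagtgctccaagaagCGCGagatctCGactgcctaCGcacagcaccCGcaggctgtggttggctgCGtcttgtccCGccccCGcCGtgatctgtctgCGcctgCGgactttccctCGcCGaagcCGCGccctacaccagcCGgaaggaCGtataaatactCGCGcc

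In the other 4 windows capitals mark the forkhead motif TGTTTAC or its complement GTAAACA, and these were chosen, after the matches were seen, because the match lay close to the peak centre in a CpG-poor window. The match was 6 bp from the centre at Gm40614 (chr10:24132435-24132734, minus strand), 19 bp at 1700012C14Rik (chr6:30460735-30461034, plus strand), 15 bp at A330015K06Rik (chr3:65302636-65302935, minus strand) and 22 bp at Gm32954 (chr17:79451665-79451964, minus strand). They hold 4, 10, 4 and 3 CpG dinucleotides.
Gm40614: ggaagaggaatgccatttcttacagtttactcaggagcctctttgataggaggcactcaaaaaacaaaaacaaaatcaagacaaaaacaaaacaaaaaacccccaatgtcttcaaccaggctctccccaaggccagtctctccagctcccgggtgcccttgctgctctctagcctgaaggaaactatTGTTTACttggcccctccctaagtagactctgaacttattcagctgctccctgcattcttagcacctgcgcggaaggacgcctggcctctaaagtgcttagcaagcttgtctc
1700012C14Rik: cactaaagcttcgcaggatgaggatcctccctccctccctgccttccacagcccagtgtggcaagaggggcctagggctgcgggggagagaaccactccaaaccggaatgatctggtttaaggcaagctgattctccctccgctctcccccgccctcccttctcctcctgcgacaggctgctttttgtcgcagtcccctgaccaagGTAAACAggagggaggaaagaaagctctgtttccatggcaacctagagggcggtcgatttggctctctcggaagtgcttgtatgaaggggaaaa
A330015K06Rik: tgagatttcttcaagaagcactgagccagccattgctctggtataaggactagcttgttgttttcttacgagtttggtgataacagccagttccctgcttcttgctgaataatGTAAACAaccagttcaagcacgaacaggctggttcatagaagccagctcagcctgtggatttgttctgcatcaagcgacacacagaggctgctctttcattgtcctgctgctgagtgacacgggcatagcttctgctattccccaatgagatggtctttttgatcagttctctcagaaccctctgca
Gm32954: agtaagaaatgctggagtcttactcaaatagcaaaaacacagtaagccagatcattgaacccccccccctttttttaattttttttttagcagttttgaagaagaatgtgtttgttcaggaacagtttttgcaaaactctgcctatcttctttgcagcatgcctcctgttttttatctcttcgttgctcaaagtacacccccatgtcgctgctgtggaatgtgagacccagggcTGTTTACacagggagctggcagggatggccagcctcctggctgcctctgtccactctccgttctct

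At lncRNA genes the peaks were placed mainly at the start. Strand was taken from the RefSeq start windows, which covered 9520 of 12697 lncRNA genes and 17274 of 21631 coding genes and no gene on chromosome 18. Of the 392 peaks whose lncRNA gene had a strand, 338 (86.2%, 82.4 to 89.5%) were nearest to the start and 54 to the end. In lncRNA genes of at least 5 kb, where both borders cannot lie within reach of the same peak, the start took 205 of 230 (89.1%). For comparison, 5740 of 5842 peaks within 1 kb of a coding border with strand (98.3%, 97.9 to 98.6%) were nearest to the start of the gene, and the intervals do not overlap.

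Around the start the peaks were spread on both sides. The median centre of the 338 peaks was 44.5 bp inside the lncRNA gene, with quartiles at -249.5 and 253 bp (negative values are upstream), and 191 (56.5%, 51.0 to 61.9%) were inside the gene. Peaks at coding starts had their median 187 bp inside the gene (quartiles 69 and 364 bp), and 4703 of 5740 (81.9%, 80.9 to 82.9%) were inside. Between 500 and 1000 bp upstream of the start lay 44 of the lncRNA peaks (13.0%) and 112 of the coding peaks (1.95%).

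**Figure D1:**
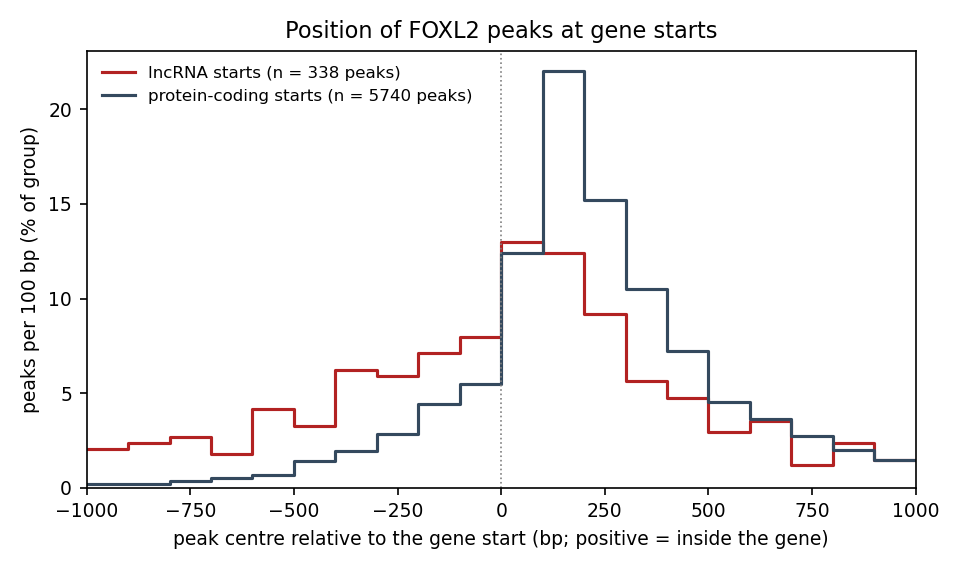
Share of FOXL2 peaks (vertical axis, % of each group per 100 bp) by the position of the peak centre relative to the annotated gene start (horizontal axis, bp, positive inside the gene), for 338 peaks at lncRNA starts and 5740 peaks at coding starts. The lncRNA peaks are spread on both sides with a median 44.5 bp inside the gene, and the coding peaks lie mostly inside with a median of 187 bp.

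The 480 peaks belonged to 464 nearest lncRNA genes. Counting every lncRNA gene with such a peak within 1 kb gave 478 of 12697, or 3.76%. Of these 478 genes 290 bore only a Gm number, 138 the name of a Riken clone, 12 a LOC number and 38 another symbol. The other symbols include Trmt61b, Rnf227, Thap8 and Zfp783, which are named like coding genes but typed as lncRNA in this annotation. A curated RefSeq transcript was listed for 226 of the 478 (47.3%, 42.7 to 51.9%), against 3087 of 12219 lncRNA genes without such a peak (25.3%, 24.5 to 26.0%). Stated by kind, 226 of 3313 curated lncRNA genes (6.82%, 5.99 to 7.73%) and 252 of 9384 with predicted transcripts alone (2.69%, 2.37 to 3.03%) had a peak.

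A coding start inside a coding gene lay close to part of the peaks, a split chosen after the values had been seen. Of the 464 peaks on chromosomes with listed starts, 118 (25.4%, 21.5 to 29.7%) lay within 1 kb of a listed coding start, although over 1 kb from the outer border of that gene, which other transcripts carry further out. The rule places all 118 inside a coding gene. Where strand was known the lncRNA ran on the opposite strand to the coding gene in 102 of 105 cases (97.1%). The peak was at the start of the lncRNA gene in 101 of 105 (96.2%) and at its end in the others. Opposite strands were also usual among overlapping lncRNA genes without such a peak and with known arrangement. Of these, 2415 were antisense, 243 ran in the same direction and 19 were of both kinds. Overlapping lncRNA genes with a peak taken here were 150 antisense, 7 in the same direction and 1 of both kinds. Of all lncRNA genes with known arrangement, antisense overlap made up 46.9% of 320 with a peak (41.3 to 52.5%). Without a peak it was 31.7% of 7608 (30.7 to 32.8%). The genes with a peak include those of the 118, and the share without them was not computed. Peaks over 1 kb from coding borders that were not at a lncRNA border had a listed coding start within 1 kb in 845 of 3583 cases (23.6%, 22.2 to 25%), and the intervals overlap.

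In this group of 118 most of the peaks at lncRNA starts sat on the coding side, with 69 of 101 centres (68.3%, 58.3 to 77.2%) inside the coding transcript. The centre was at a median of -191 bp from the lncRNA start (quartiles -441 and 81 bp, 101 peaks) and 157 bp inside the coding transcript (quartiles -69 and 298 bp). The coding start was the nearer of the listed starts for 80 of the 118. This count includes peaks whose lncRNA gene had no listed start, where the comparison was with the start of another lncRNA gene. In the 346 peaks with no listed coding start within 1 kb, the median centre was 111 bp inside the lncRNA gene (quartiles -121 and 314 bp, 237 peaks at starts with strand). Of those 237, 154 (65.0%, 58.5 to 71.0%) were inside the lncRNA gene, against 37 of 101 (36.6%, 27.3 to 46.8%) near a coding start. Coding genes without a listed start could not be checked, so some of the 346 may have an unlisted coding start nearby.

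Several coding partners are well known, and the examples were picked after their values were seen. The peak at Snhg9, the host of the snoRNA Snora78 printed above, lay 83 bp upstream of Snhg9 and 15 bp upstream of the listed start of Rps2, which encodes a protein of the small ribosomal subunit. At Gm17586 the centre was 71 bp upstream of the lncRNA start and 132 bp upstream of the start of Mafg, which encodes a small MAF transcription factor. At Zfp335os it was 44 bp inside the lncRNA gene and 273 bp inside the transcript of Zfp335, a zinc finger gene. At 4930467K11Rik it was 196 bp upstream of the lncRNA and 164 bp inside the transcript of Hsf2, a heat shock factor gene. These positions place each centre between or just beside both starts. Gm30150 and the kinase gene Akt1 had a peak 790 bp upstream of the lncRNA start and 590 bp inside the Akt1 transcript. The peak at Zeb2os lay 132 bp from a listed start of Zeb2, a zinc finger homeobox gene, and 993 bp from the lncRNA border, the largest distance taken.

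The share of lncRNA genes with a peak differed with such a partner, in a set of lncRNA genes also defined after values were seen. Among 7867 lncRNA genes with strand whose start was over 2 kb from every coding border, 265 (3.37%) had a peak at the start. With a listed coding start within 1 kb of the lncRNA start it was 57 of 147 (38.8%, 30.9 to 47.2%), and without it was 208 of 7720 (2.69%, 2.34 to 3.08%). Without such a coding start the intervals for each arrangement overlapped. The share was 2.12% for lncRNA genes antisense to an overlapping coding gene (35 of 1649), 1.99% for those overlapping in the same direction (4 of 201), and for lncRNA genes apart from coding genes 2.23% divergent (27 of 1213), 2.76% in tandem (64 of 2315) and 2.86% convergent (29 of 1014). For the remaining genes, whose arrangement was unknown or of both overlapping kinds, it was 3.69% (49 of 1328, 2.74 to 4.85%). Seen from the coding side, 3071 listed coding starts lay over 2 kb from coding borders and 22.8% had a peak within 1 kb. This was 65 of 166 (39.2%, 31.7 to 47.0%) where a lncRNA started within 1 kb on the other strand and 634 of 2901 (21.9%, 20.4 to 23.4%) where none did.

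**Figure D2:**
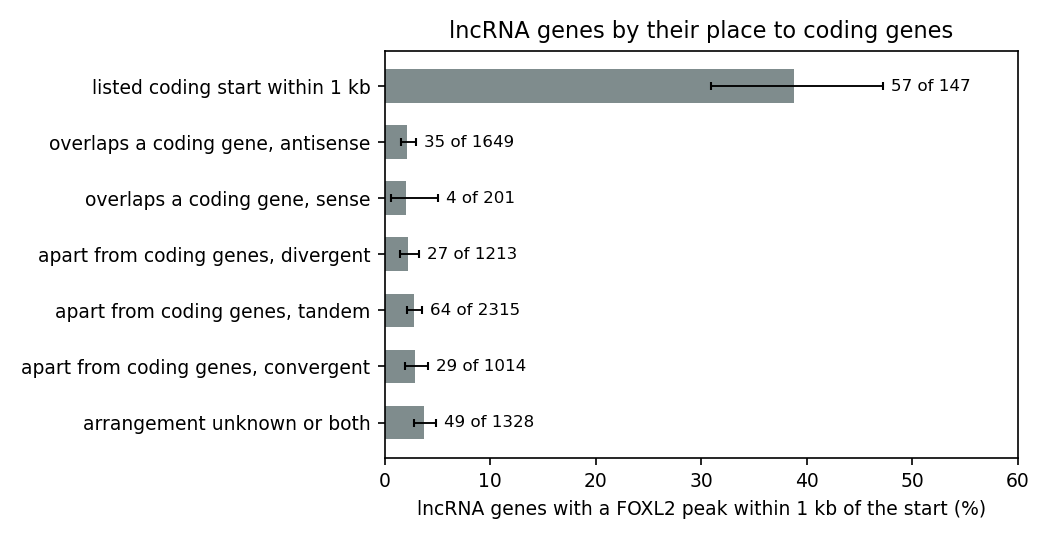
Share of lncRNA genes with a FOXL2 peak within 1 kb of the start (horizontal axis, %, bars with exact 95% intervals and counts), for lncRNA genes whose start is over 2 kb from every coding border, grouped by a listed coding start within 1 kb or by their place to the nearest coding gene, with genes of unknown or mixed arrangement last. The first bar stands at 38.8% and the others lie between 1.99 and 3.69%.

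In position to coding genes as a whole, 225 of the 480 peaks (46.9%, 42.3 to 51.5%) were inside a coding gene body, against 2297 of 3709 (61.9%, 60.3 to 63.5%) of the other peaks over 1 kb from coding borders. The 480 could lie only at lncRNA borders, so their share also depends on where lncRNA genes lie. By gene, 236 of 478 lncRNA genes with a peak overlapped a coding gene (49.4%, 44.8 to 54.0%). Without a peak it was 4345 of 12219 (35.6%, 34.7 to 36.4%). For the 480 peaks the nearest coding border was a median of 12.9 kb away (quartiles 3.31 and 37.6 kb) against 14 kb for the other peaks. Over 100 kb away were 48 of 480 peaks against 461 of 3709 (12.4%). Between 1 and 2 kb lay 80 peaks (16.7%), between 2 and 5 kb 63, between 5 and 10 kb 71, and between 10 and 100 kb 218. Leaving out peaks within 1 kb of a listed coding start, which the rule places inside coding genes, left 101 of 346 (29.2%, 24.5 to 34.3%) inside a coding gene, against 1368 of 2738 of the other peaks (interval 48.1 to 51.9%). The nearest coding gene had a peak of its own within 1 kb of a border for 165 of 480 (34.4%), against 34.9% for the other peaks and 31.5% of all coding genes. Another peak lay within 10 kb of 96 of the 480 (20.0%), against 18.8%.

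**Figure D3:**
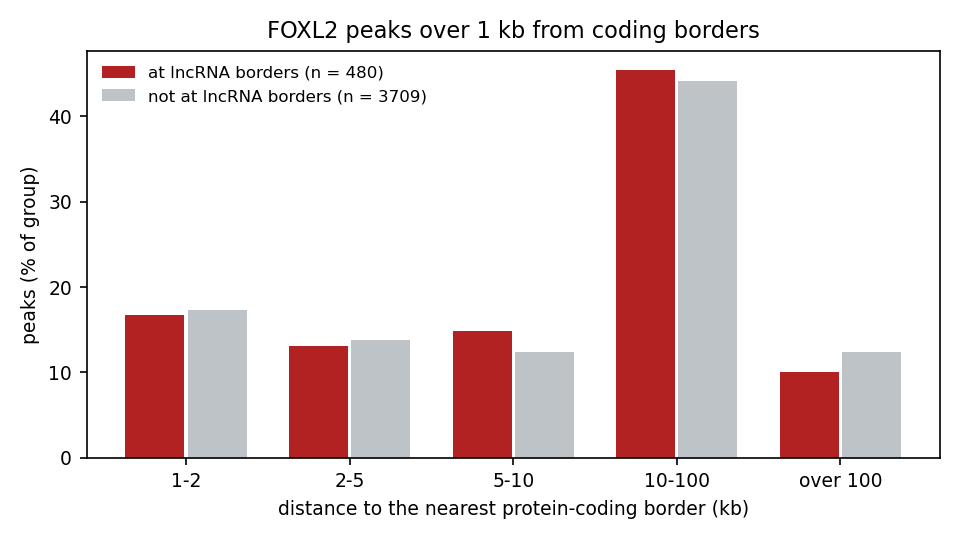
Share of peaks (vertical axis, % of each group) by distance to the nearest protein-coding border (horizontal axis, kb), for 480 peaks at lncRNA borders and 3709 other peaks over 1 kb from coding borders. Both groups have similar shares in each interval, with 45.4% and 44.1% between 10 and 100 kb.

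The 5 most remote peaks were 419558 to 988677 bp from any coding border. The peak 62 bp upstream of Gm40604 on chromosome 10 was 988677 bp from Nmbr, a peptide receptor gene and its nearest coding neighbour. Peaks at Gm19744 and Gm42303 were 617405 and 508699 bp from a coding border, but inside the bodies of Tenm3 and Ptprd, which encode neuronal adhesion molecules. Those at Gm41798 and 4930471G24Rik were 425345 bp from Zfp516 and 419558 bp from Rnf144b. The peak at 4930471G24Rik was 1 bp outside the lncRNA start, the smallest distance of all. At LOC115489488 and Gm36183 the distance to the border was 2 bp, at Chaserr 3 bp and at Gm30771 5 bp.

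Well-known lncRNA genes were represented by 14 of 78 in the gene table (17.9%, against 3.76% of all lncRNA genes, 6.82% of those with a curated transcript and 7.58% of those with a symbol other than a Gm, LOC or Riken name). The Snhg genes, which host snoRNAs in their introns, supplied 8 of these, from 17 Snhg genes in the table, a family counted after its values were seen. Of 214 lncRNA genes whose span holds a miRNA or snoRNA gene, 19 (8.88%, 5.43 to 13.5%) had a peak, against 459 of 12483 without (3.68%, 3.35 to 4.02%). Among lncRNA genes with no listed coding start within 1 kb and a start over 2 kb from coding borders, the share was 14 of 131 (10.7%, 5.97 to 17.3%), against 2.69% of all such genes. It was 23 of 245 (9.39%, 6.04 to 13.8%) for symbols other than Gm, LOC or Riken names and 113 of 1881 (6.01%, 4.98 to 7.18%) for genes with a curated transcript, with intervals that overlap that of the small RNA hosts.

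At the Snhg genes the centre was 12 bp inside Snhg15, 109 bp inside Snhg20, 115 bp inside Snhg16, 142 bp inside Snhg17 and 169 bp inside Snhg8. It was 83 bp upstream of Snhg9 and 252 bp upstream of Snhg5. Snhg4 had no listed strand and a peak 305 bp outside. The snoRNA host Dancr, known for restraining differentiation of progenitor cells, had a peak 187 bp inside. At 2410006H16Rik, which spans Snord49a, Snord49b and Snord65, the peak was 119 bp upstream, and at 2700038G22Rik and 1110038B12Rik, which span Snord93 and Snord52, the centres were 237 and 242 bp inside.

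Some of the lncRNA genes carry microRNAs on their own strand, whose mature sequences are shown with the seed, bases 2 to 8, in capitals. Dleu2, with a peak 476 bp upstream of its start, spans Mir15a and Mir16-1, whose main products share a seed and are known to restrain cell cycle genes. E130102H24Rik, with a peak 75 bp inside its start, spans Mir101a.
mmu-miR-15a-5p: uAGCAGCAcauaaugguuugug
mmu-miR-16-5p: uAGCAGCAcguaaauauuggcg
mmu-miR-101a-3p: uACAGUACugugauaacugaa

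Snhg20 and 2900076A07Rik span Mir6516 and Mir1839 in the same way, with peaks 109 bp inside and 346 bp upstream of the starts. Gm16201 also spans miRNA genes, among them Mir202, a miRNA of the gonads, but these lie on the opposite strand. Its peak was 582 bp inside the lncRNA gene.

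Other well-known lncRNA genes had a peak at the start as well. Jpx, an activator of Xist, had a peak 250 bp inside the gene, 69220 bp from the nearest coding border. Oip5os1, known as Cyrano and needed for the decay of miR-7, had a peak 237 bp inside. Malat1, an abundant nuclear RNA, had a peak 709 bp upstream of its listed start. Chaserr, which restrains its neighbour Chd2, had peaks 404 bp inside and 3 bp upstream of its start, 407 bp apart.

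A second peak was found at 16 lncRNA genes, and no lncRNA gene had more. In 14 of them the centres were 407 to 1161 bp apart (median 674.5 bp). In 9 of the 16 both peaks were within 1 kb of a listed coding start, among them 1700052K11Rik in Tlk2, 2310047K21Rik in Qser1, 9430083A17Rik in Spin1, 9530018F02Rik in Fut8, Gm11608 in Zdbf2, Gm15327 in Map3k1 and Gm52285 in Srrm2. At Srrm2, which encodes a splicing factor, the centres were 14 and 604 bp from the coding start and lay on either side of the lncRNA start. The remaining genes of the 9 were 2410022M11Rik at Zmym5 and A630026N12Rik at Gabpb1. Close pairs not among these 9 were at 4930577N17Rik, Chaserr, Gm11205, Gm12843 and Gm26901. At 4930577N17Rik 1 of the peaks was 232 bp from a listed start of Elf2. The peaks at Gm11205 were 343 and 339 bp from the border of a tRNA gene. At 2010204K13Rik, on the X chromosome, the peaks marked both ends of the gene and were 10449 bp apart. At Gm30528, which starts outside Hoxc4 and ends inside it on the opposite strand, the peaks lay at both ends, 32984 bp apart.

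Among pregranulosa genes, markers of the somatic cells that later become granulosa cells, 3 of 26 were the nearest coding gene of a peak at a lncRNA border. The share over all coding genes was 2.08%. Rspo1, a secreted WNT activator, had the peak at chr4:125017714-125018013, 8761 bp from the gene border and 188 bp inside the start of Gm38472, which lies downstream of Rspo1 in tandem. Fst, which encodes follistatin, had the peak at chr13:114457236-114457535, 1604 bp inside the gene and 881 bp inside the start of Gm41074. Cdkn1b, which encodes a cyclin-dependent kinase inhibitor, had the peak at chr6:134928249-134928548, 2873 bp beyond its end and 694 bp upstream of Lockd, a lncRNA gene in tandem with it.

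In the other lists, too, few genes were next to such a peak. Of 25 Sertoli genes 1 was, Fgf9, a growth factor gene, at 188010 bp from the peak 62 bp inside Gm33321. Of 22 early gonad genes 2 were, Map3k4, a kinase gene of sex determination, 9236 bp from the peak 782 bp beyond the end of 4732491K20Rik, and Sall4. Sall4, a stem cell and germ cell factor, was also the only 1 of 30 germ cell genes, with the peak 1239 bp inside the gene and 181 bp upstream of Gm14261. Endothelial genes gave 1 of 16, Flt1, a VEGF receptor gene, 26675 bp from the peak 96 bp inside Gm35541. Mesonephros and epithelium genes gave 1 of 10, Pax8, 46040 bp from the peak 596 bp upstream of Gm39769. Later granulosa genes (25), stroma and steroid genes (20), blood genes (16) and neuron genes (20) gave 0. The share was 9.09% for early gonad genes and 6.25% for endothelial genes, against 11.5% for pregranulosa genes and 2.08% for all coding genes. Each of these lists had at most 3 such genes, so no preference for the pregranulosa list can be read from the shares.

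Developmental regulators, here families of transcription factors and signalling genes, were the nearest coding gene for 36 of the 480 peaks (7.50%, 5.31 to 10.2%). The share was 6.61% (5.83 to 7.45%) for the other peaks over 1 kb from coding borders, so the intervals overlap, and such genes make up 2.18% of coding genes. By gene, 33 of 472 regulators (6.99%) were next to such a peak, against 450 of all 21631 coding genes (2.08%). The closest were Sall4 and Mafg, given above, and Klf16, a zinc finger factor gene, 1364 bp from the peak at Gm26710. The neural factor gene Pou3f2 was 1881 bp away, and the peak lay 301 bp upstream of Gm30731, which is divergent to it. Peaks inside Prdm8, at A730035I17Rik, and inside Hoxc9, at Gm36878, were 2130 and 2550 bp from the coding border. In Tshz2 the distance was 2708 bp, in Prdm10 4572 bp, in Tgfb2 5245 bp, in Gata3 5502 bp, in Pax5 6373 bp and in Zeb2 7297 bp. Of these, only the peaks at Mafg, Prdm10 and Zeb2 were within 1 kb of a listed coding start, and Klf16, Hoxc9 and Sall4 had no listed start to compare.

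The lncRNA genes named after a coding gene as its opposite strand were 11. Zfp335os, Zbtb11os1 (515 bp inside), Sp3os (335 bp outside) and Zeb2os had the start of their namesake within 1 kb of the peak. Kcnd3os (83 bp upstream, named for a potassium channel gene) and Kif16bos (160 bp inside, named for a kinesin gene) had it 1148 and 1661 bp away. Chrna1os, Ttc39aos1, Zfp652os, Tvp23bos and Oip5os1 had peaks 237 to 991 bp from their border and no listed coding start within 1 kb.

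Base composition differed between lncRNA starts with and without a peak. The 300 bp windows at 329 such starts had a median G + C content of 59.7% and a median ratio of observed to expected CpG dinucleotides of 0.677. For 10449 lncRNA starts with no peak within 1 kb the medians were 47.7% and 0.222, and for 7820 coding starts with a peak 63.3% and 0.825. With a coding start within 1 kb the 94 lncRNA windows had 67.0% and 0.778, and the other 235 had 56.0% and 0.604, with CpG quartiles of 0.335 and 0.836. At a ratio of 0.6, a level set after the windows were seen, 118 of the 235 (50.2%, 43.6 to 56.8%) were CpG-rich, against 817 of 10449 starts without a peak (7.82%) and 6618 of 7820 coding starts with a peak (84.6%). The level lies next to the median of the 235 windows, so their even split follows from it.

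Read the other way, a peak lay within 1 kb of 262 of the 9434 listed lncRNA starts that were over 2 kb from coding borders and over 1 kb from listed coding starts, or 2.78%. Of the CpG-rich starts among these, 111 of 536 (20.7%, 17.4 to 24.4%) had a peak, and of the CpG-poor starts 151 of 8898 (1.70%, 1.44 to 1.99%). Of the windows printed above, Snhg15 had a ratio of 0.927, and Gm40614, A330015K06Rik and Gm32954 had 0.239, 0.245 and 0.194. Snhg9, with 0.992, lies near the start of Rps2 and is in neither count.

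**Figure D4:**
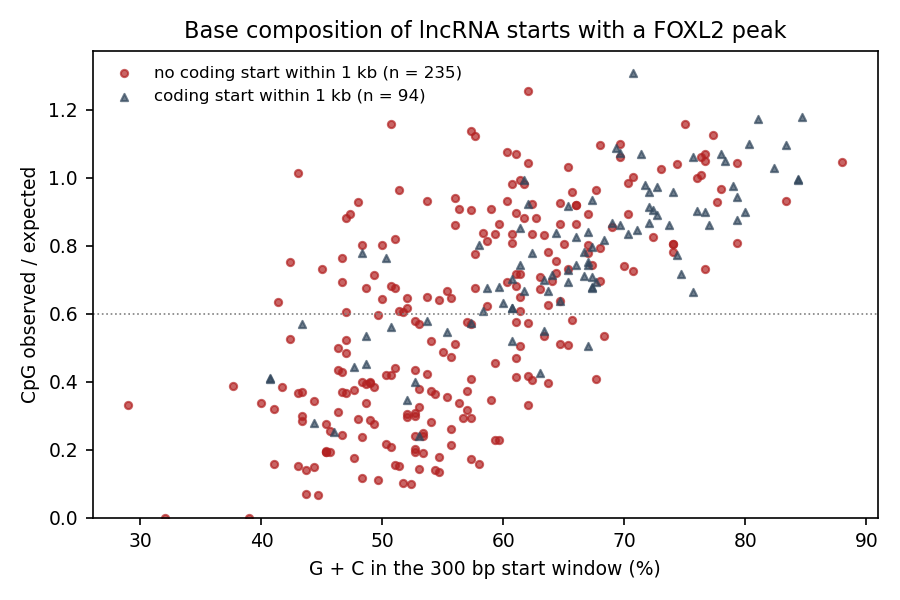
G + C content (horizontal axis, %) and CpG observed to expected ratio (vertical axis) of 300 bp windows at 329 lncRNA starts with a FOXL2 peak, 94 with a listed coding start within 1 kb and 235 without. The dotted line marks a ratio of 0.6. Windows near a coding start lie mostly above the line, with a median of 0.778, and the others are spread on both sides with a median of 0.604.

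The forkhead motif, TGTTTAC searched on both strands, was found in 27 of the 329 windows (8.21%), against 513 of 10449 lncRNA starts without a peak (4.91%), 211 of 7820 coding starts with a peak (2.70%) and 3.65% of all windows in the table. Near a coding start it was in 4 of 94 windows (4.26%, 1.17 to 10.5%), and in the others in 23 of 235 (9.79%, 6.31 to 14.3%). Among CpG-poor windows away from coding starts it was in 16 of 117 (13.7%, 8.02 to 21.3%), against 456 of 9632 CpG-poor lncRNA starts without a peak (4.73%, 4.32 to 5.18%). In CpG-rich windows away from coding starts it was in 7 of 118 (5.93%, 2.42 to 11.8%) against 57 of 817 (6.98%, 5.33 to 8.95%). Overlapping CpG-rich windows at Gm12843 hold the same match and are counted separately.

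The density of matches, a measure added after the windows were seen, was higher on bases under a peak. In the 235 windows away from coding starts, 16 matches lay in 17.5 kb under a peak, or 0.913 per kb, and 8 in the other 53.0 kb, or 0.151 per kb. The match at Gm12843 lay in overlapping windows of that gene and is counted in each, as are the bases these windows share. Lacking a peak, lncRNA starts had 0.171 per kb. At coding starts with a peak the values were 0.187 per kb under the peak and 0.0582 per kb elsewhere. Inside the peak of their own lncRNA gene lay 17 matches, 6 to 134 bp from the centre with a median of 45 bp, and 11 of them were within 50 bp. Besides the windows printed above, the match was 6 bp from the centre at 2900052L18Rik, next to Bahcc1, and 13 bp at Gm39426, in Helz. Only 177 of 339 peaks with a listed lncRNA start within 1 kb had any base in the window, so sequence under a peak was read only where it overlapped a window, and a match is a description of letters rather than a site.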

How the data were processed

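FOXL2 ChIP and input samples were grouped by their titles, 2 each. Per the submitters' processing notes, Bowtie 1.2, Picard 1.110, bedtools 2.24.0 and HOMER 4.9 were used with build mm10; no source at hand gives their roles, the threshold or how replicates were combined. Values deposited by the authors are peak starts and ends in bp, another kind of unit than counts or scores. Peaks were compared in Python 3.11.15 (scipy 1.17.1) with RefSeq genes of GRCm38.p6, the assembly of mm10. Strand, start sites and sequence came from 32851 RefSeq start windows, which covered 26794 genes. Shares have exact binomial intervals at 95%. The distance functions were tested on simulated data with planted peaks. Members and gene lists were chosen with earlier results of these data known. Named genes follow a rule: well-known lncRNAs, genes with a second peak, opposite-strand names, gonad-list neighbours, the closest regulators, hosts of small RNAs, and the nearest and farthest peaks; the coding partners and forkhead windows outside it were chosen after their values were seen. Alternatives were other border distances, the peak edge, curated lncRNA genes and merged peaks.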

Additional observations from a re-analysis of the deposited data

How the results depend on the processing

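Of 55 alternative values, 44 stayed within the interval of the reported share or within 1.5 times the reported count. With lncRNA borders of 2 kb, 52.2% of peaks were inside the lncRNA gene and 81.2% at its start. With coding borders excluded to 2 kb, 39.5% were inside a coding gene and 33.5% within 10 kb of a coding border, since this setting removes the nearest peaks. With curated lncRNA genes alone there were 232 peaks and 226 lncRNA genes, because fewer genes were searched, with 93.7% at the start and 54.3% within 10 kb of a coding border; the cause of these shares was not tested. Without peaks within 1 kb of a listed coding start, a setting chosen after seeing the data, 63.3% were inside the lncRNA gene, 29.6% inside a coding gene and 35.9% within 10 kb of a coding border. Borders of 0.5 kb, the peak edge, merged peaks and lncRNA genes of at least 5 kb gave values within those limits. Just inside and outside the 1 kb lncRNA distance were peaks at 991, 992 and 993 bp and at 1006, 1013 and 1014 bp. Just inside and outside the coding distance they were at 1023, 1046 and 1049 bp and at 984, 985 and 995 bp. No paired analysis was possible because the file is a single list for both ChIP samples, and for the same reason no replicate was left out.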

Other observations

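Beside the forkhead motif, 11 other short motifs were searched on both strands, given here as the share of lncRNA starts with a peak (329 windows), of lncRNA starts without a peak (10449) and of all 32851 windows. The SP and KLF motif GGGCGG was in 52.0%, 11.4% and 35.7%, and the ETS motif CCGGAAG in 10.6%, 2.82% and 8.86%. The E-box CACGTG was in 33 windows (10%), 5.49% and 7.15%, and the NRF1 motif GCGCATGCG in 2.74%, 0.364% and 1.75%. TGACGT, part of the CRE, was in 8.51%, 5.21% and 7.51%, and the whole CRE, TGACGTCA, in 1.52%, 0.833% and 1.79%. The YY1 motif AAGATGGC was in 3.04%, 2.01% and 2.75%. Lower shares at starts with a peak than at starts without were found for TATAAA (8.51%, 16.5% and 13.6%), CCAAT (30.4%, 36.5% and 37.4%), the AP-1 motif TGANTCA (6.08%, 9.8% and 7.81%) and the nuclear receptor motif TCAAGGTCA (0.304%, 0.612% and 0.423%). At the 7820 coding starts with a peak the shares were 71.5% for GGGCGG, 20.5% for CCGGAAG, 11.2% for CACGTG and 4.35% for GCGCATGCG. There TGACGT had 12.8%, TGACGTCA 3.44%, AAGATGGC 5.36%, TATAAA 5.23%, CCAAT 36.8%, TGANTCA 3.64% and TCAAGGTCA 0.192%. Median G + C was 59.7% in the lncRNA windows with a peak and 47.7% in those without. Its part in these shares was not tested.

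By chromosome, the share of lncRNA genes with a peak ran from 1.84% on chromosome 8 (13 of 707) to 5.01% on chromosome 15 (27 of 539), and was 3.81% on the X chromosome (11 of 289). A pseudogene border lay within 1 kb of 3 of the 480 peaks (0.625%), and the border of a miRNA, snoRNA, snRNA or tRNA gene within 1 kb of 23 (4.79%). The latter include snoRNA genes inside a host lncRNA gene, such as Snhg15. The same shares were not computed for other peaks, so neither count can be read as high or low.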
